A study of Mus musculus with 2 samples.

Results

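The CITED coregulators and the hypoxia-inducible factor (HIF) system were described through 10 genes, Cited2, Cited4, Hif1a, Epas1, Egln1, Egln3, Vhl, Hif1an, Ep300 and Crebbp, out of 23284 gene symbols measured by RNA-seq. All 10 were listed in both libraries. The genes were picked by name, but the list was drawn up with earlier results in view and was in part chosen on measured values: the ESAM-null to WT ratio of Cited4, among the largest of these data, and the values of Cited2. The ratios of the 10 genes are therefore a description, and their number past a fold threshold supports nothing about the list.

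HIFs are pairs of an oxygen-regulated alpha subunit and a constant partner, ARNT, and they activate genes for glycolysis, iron handling and vessel growth. When oxygen is plentiful, prolyl hydroxylases of the EGLN family mark the alpha subunit for the VHL ubiquitin ligase, and the asparaginyl hydroxylase FIH, encoded by Hif1an, blocks its contact with the coactivators p300 and CBP. CITED proteins do not bind DNA but occupy the same coactivator surface as the alpha subunit. In hematopoietic cells Cited2 is known for its role in the fetal liver (FL) and in keeping adult hematopoietic stem cells (HSCs).

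The cells were the lineage marker-negative, Sca1+ c-kit high (LSK) CD48– fraction of E14.5 mouse FL, which is enriched in HSCs. There was 1 library from WT fetuses and 1 from fetuses with a conventional knockout of endothelial cell-selective adhesion molecule (ESAM), which carry the deletion in every cell. How many fetuses and cells went into each was not stated. The labels speak of sorted cells placed in methylcellulose medium and incubated, whereas the text of the study speaks of sorted FL cells. The cDNA came from a kit for low RNA input that does not mark strand, was sheared to between 200 and 500 bp and was read as 75 bp single-end reads.

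Expression is given as FPKM, fragments per kilobase of transcript scaled to the number of fragments, which can be compared between genes. Steps of 1 read in the low values placed about 9394089 fragments behind the WT and 10215196 behind the ESAM-null library on the authors' scale. Reads per gene below come from these totals and are approximate. Of the listed genes, 14305 were above 0 in WT and 13039 in ESAM-null, although more fragments stood behind the ESAM-null library. Each genotype has 1 library, so differences could not be set against a spread between replicates and no p-value is given. Each ratio carries an exact (Clopper-Pearson) 95% interval, which covers only the counting error of the estimated reads. It treats each read as independent, and PCR copies are not separate molecules, so it can be too narrow. Esam itself was 117.6 FPKM in WT against 12.1 FPKM in ESAM-null. The 5 HSC markers (Kit, Ly6a, Procr, Mecom and Hlf) summed to 400.2 FPKM and 385.6 FPKM, with 0 of 5 past 2-fold and 4 ratios below 1. Of 2352 genes with a mean of 30 to 100 FPKM, 17 were at least 2-fold lower and 34 higher, so 0 of 5 says little. Kit and Ly6a encode c-kit and Sca1, on which the cells were sorted, so their likeness was in part set by the sort. Bulk values cannot tell fewer cells of a type from less RNA per cell.

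The windows before the start sites of 3 of the genes are shown because they are the genes the values below turn on: Cited4, with the largest ratio, Cited2, its most abundant relative, and Egln3, the hydroxylase that is itself a textbook HIF target. They were taken from RefSeq (GRCm38.p6), run 5′ to 3′ on the strand of the gene and end before the first annotated transcript base. Capitals mark the HIF core motif ACGTG or its variant GCGTG on either strand. The palindrome CACGTG holds ACGTG on both strands. The windows are chr4:120666313-120666562 (plus strand, 250 bp) for Cited4, chr10:17722978-17723217 (plus strand, 240 bp) for Cited2 and chr12:54203875-54204124 (minus strand, 250 bp) for Egln3.
Cited4: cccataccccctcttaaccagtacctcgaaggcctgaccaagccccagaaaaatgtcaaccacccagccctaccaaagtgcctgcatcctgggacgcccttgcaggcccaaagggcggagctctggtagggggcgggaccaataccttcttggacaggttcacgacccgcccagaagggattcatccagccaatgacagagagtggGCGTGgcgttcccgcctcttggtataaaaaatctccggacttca
Cited2: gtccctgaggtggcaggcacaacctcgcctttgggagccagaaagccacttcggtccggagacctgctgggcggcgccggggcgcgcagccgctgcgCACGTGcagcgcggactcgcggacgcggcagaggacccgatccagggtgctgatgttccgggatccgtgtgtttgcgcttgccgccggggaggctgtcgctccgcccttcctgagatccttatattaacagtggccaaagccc
Egln3: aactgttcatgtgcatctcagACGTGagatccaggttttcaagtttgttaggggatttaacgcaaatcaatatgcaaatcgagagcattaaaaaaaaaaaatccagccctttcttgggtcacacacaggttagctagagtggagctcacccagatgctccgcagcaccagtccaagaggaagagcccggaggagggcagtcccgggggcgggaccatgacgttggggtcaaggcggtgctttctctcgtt

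The match in the Cited4 window began 44 bases before the RefSeq start, that of Cited2 began 153 bases before it, and that of Egln3 began 229 bases before it. GC content was 58% for Cited4, 67.5% for Cited2 and 50.8% for Egln3, beside a median of 52.4% over all windows. Of the 10 genes, 9 had a window in the table, and 5 of these 9 windows, taken over the 250 bp before the RefSeq start, held at least 1 match. Over all 32851 windows of the same length, 16.6% held ACGTG, 28.2% held GCGTG and 38.6% held either. A match of these letters is a description and not a binding site.

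Cited4 encodes a small transcriptional coregulator that binds p300 and CBP. It lies at chr4:120666572-120667820 on the plus strand of mm10 as a single exon with no annotated gene overlapping it. It was 0.202 FPKM in the WT library, about 2 reads, and 24.6 FPKM in the ESAM-null library, about 263 reads. Cited4 was thus under the floor of 3 reads (0.305 FPKM) in WT and clearly detected in ESAM-null. The ratio was 121.8, with a counting interval of 33.1 to 1004 that is wide because the WT value rests on 2 reads. In WT, 43.1% of all listed genes lay below Cited4, and in ESAM-null 82.0% did. Among 11663 genes above 0 in both libraries and at 1 FPKM or more in at least 1, 3 genes, Cited4 included, had a ratio as large as or larger than that of Cited4. This rank leaves out genes at 0 in WT, and Cited4 escapes that by about 2 reads. With those genes counted as larger, 98.9% of all 12066 genes that reached 1 FPKM had a ratio below that of Cited4. Of genes with a mean of 10 to 30 FPKM, the range of Cited4, 2.84% were at least 2-fold higher in ESAM-null, and since Cited4 was chosen for this ratio nothing is read from that share.

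Cited2, which competes with HIF alpha subunits for p300 and CBP and is itself induced by HIF, was the most abundant of the 10 genes in both libraries. It has 2 exons in its main transcript and lies at chr10:17723218-17725674 on the plus strand. Cited2 was 76.7 FPKM in WT against 89.4 FPKM in ESAM-null, a ratio of 1.17 with a counting interval of 1.08 to 1.26. For comparison, the median ratio of all genes was 1.07 for genes with a mean of 30 to 100 FPKM and 1.28 for genes at 100 FPKM or more. When each library was rescaled to the same total, which moves every log2 ratio by -0.28, the log2 ratio of Cited2 turned from 0.22 to -0.057.

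Cited1, the third family member in the file, encodes another p300 and CBP partner that lacks DNA binding. It was 0.972 FPKM in WT, about 8 reads, and 3.83 FPKM in ESAM-null, about 35 reads, a ratio of 3.94 with an interval of 1.83 to 10.04. Summed, the 3 CITED genes were 77.8 FPKM in WT against 117.8 FPKM in ESAM-null, 1.51-fold higher. Cited4, which was chosen for its ratio, is part of this sum. Nothing about the family is therefore read from the sum or the shares. Cited2 made up 98.5% of this sum in WT and 75.9% in ESAM-null, while Cited4 made up 0.259% and 20.9%. The WT share of Cited4 rests on about 2 reads. In the ESAM-null library Cited2 stood at 3.64 times the level of Cited4.

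**Figure D1:**
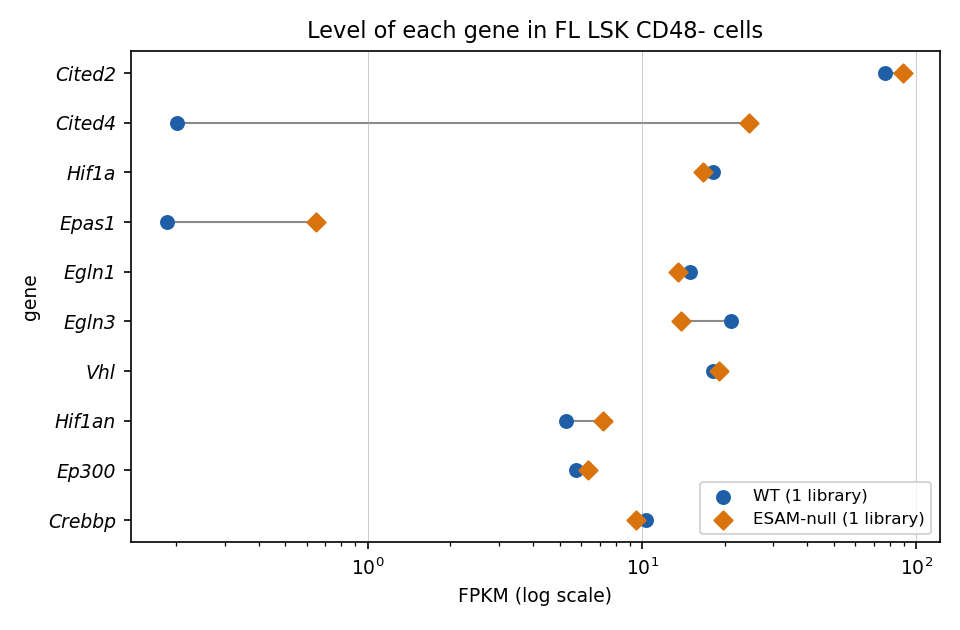
FPKM (log axis) of the 10 genes in the WT library (circles) and the ESAM-null library (diamonds), 1 library each, joined by a line. Cited4 spans 0.202 to 24.6 FPKM and Epas1 0.185 to 0.644 FPKM, and the other 8 genes lie close together between 5.26 and 89.4 FPKM.

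Hif1a, the broadly expressed oxygen-regulated alpha subunit, was 18.1 FPKM in WT against 16.7 FPKM in ESAM-null, about 771 and 772 reads. Its ratio was 1.08-fold lower in ESAM-null, and the interval of the ratio, 0.832 to 1.02, held 1. The gene lies at chr12:73901375-73947530 on the plus strand, where an antisense gene and a gene on the same strand overlap it, so reads of the shared stretches cannot be told apart.

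Epas1, the alpha subunit that is typical of endothelium and drives erythropoietin in tissues that make it, was far lower in level than Hif1a. It lies at chr17:86753700-86833410 on the plus strand. There 1 annotated gene on the same strand overlaps it, so reads of any shared stretch cannot be told apart. Epas1 was 0.185 FPKM in WT, about 9 reads, and 0.644 FPKM in ESAM-null, about 35 reads. The ratio was 3.47 with an interval of 1.69 to 8.46. Epas1 stayed under 1 FPKM in both libraries and so did not enter the count of genes past 2-fold. Of all genes with a mean of 0.3 to 1 FPKM and no other filter, 22.7% were at least 2-fold higher in ESAM-null. A 2-fold rise is therefore frequent at this level, and the share at the fold of Epas1 was not counted. Hif1a stood at 97.8 times the level of Epas1 in WT and at 26.0 times in ESAM-null.

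Endothelial markers were examined beside Epas1. The 7 genes of the list (Cdh5, Pecam1, Kdr, Tek, Emcn, Stab2 and Lyve1) summed to 78.1 FPKM in WT against 92.9 FPKM in ESAM-null, and 5 of them reached 1 FPKM, 1 of which was past 2-fold. That gene was Cdh5, the endothelial cadherin, at 0.954 FPKM in WT against 3.33 FPKM in ESAM-null. Over all genes 7.42% were at least 2-fold higher and 12.8% at least 2-fold lower. In the range of 1 to 3 FPKM, which holds Cdh5, 354 of 1796 genes were at least 2-fold higher, so 1 of 5 says little. Pecam1 was lower in ESAM-null, at 20.8 FPKM and 12.1 FPKM, as was Kdr, at 1.33 FPKM and 0.780 FPKM. Stab2, under 1 FPKM in both, was 0.0401 FPKM and 0.492 FPKM, about 3 and 40 reads. Tek was 10.9 FPKM and 16.3 FPKM, and Emcn, which makes up most of the sum, was 43.2 FPKM and 59.96 FPKM. Lyve1, at 0.884 FPKM in the WT library, had a listed value of 0 in the other. The list thus held higher and lower genes, and Tek and Emcn are also expressed by HSCs. The study also names the products of Tek, Cdh5 and Pecam1 among antigens found on HSCs during development. The part of endothelial cells in the values of Epas1 and Cited4 was not tested.

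Of the related subunits, Hif3a was 8.76 FPKM in WT against 6.71 FPKM in ESAM-null, 1.31-fold lower. Arnt, the constant partner of both alpha subunits, was 12.4 FPKM and 8.15 FPKM, 1.52-fold lower with an interval of 1.32 to 1.75. Arnt2 was listed at 0 in both libraries. The 3 alpha subunit genes together came to 27.1 FPKM in WT against 24.1 FPKM in ESAM-null, so Hif1a carried most of the alpha subunit RNA in each.

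Egln1 encodes the prolyl hydroxylase that serves as the main oxygen sensor for HIF. It lies at chr8:124908587-124949324 on the minus strand and was 14.9 FPKM in WT against 13.5 FPKM in ESAM-null, 1.10-fold lower, with an interval of the ratio of 0.799 to 1.04 that held 1.

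Egln3, the family member that hypoxia induces most readily in many cells, was the 1 described gene that was lower by more than 1.5-fold. It lies at chr12:54178981-54203860 on the minus strand. Egln3 was 21.1 FPKM in WT, about 488 reads, and 13.9 FPKM in ESAM-null, about 348 reads, 1.52-fold lower with an interval of 1.33 to 1.75. At this level the fold is common: 16.6% of genes with a mean of 10 to 30 FPKM were 1.5-fold lower or more. Egln3 was the second most abundant of the 10 genes in WT and the fifth in ESAM-null.

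Egln2, the remaining prolyl hydroxylase, was 58.1 FPKM in WT against 35.1 FPKM in ESAM-null, 1.66-fold lower with an interval of 1.501 to 1.83. It was the most abundant of the 3 in each library. Summed, the EGLN genes were 94.1 FPKM in WT against 62.5 FPKM in ESAM-null, 1.51-fold lower. Egln3 made up 22.4% of the sum in WT and 22.2% in ESAM-null, Egln1 15.8% and 21.7%, and Egln2 61.8% and 56.2%.

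Hif1an, whose product FIH hydroxylates an asparagine of the alpha subunit, was 5.26 FPKM in WT against 7.20 FPKM in ESAM-null. Its ratio was 1.37 with an interval of 1.18 to 1.59, the opposite direction to the EGLN genes. It lies at chr19:44562850-44576274 on the plus strand. Vhl, the substrate-binding subunit of the ubiquitin ligase, was 18.1 FPKM and 19.01 FPKM, a ratio of 1.05 with an interval of 0.923 to 1.198 that held 1. Vhl lies at chr6:113623959-113631633 on the plus strand. Within each library it stood near Hif1a, at 0.997 times its level in WT and 1.14 times in ESAM-null.

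The coactivators that both CITED proteins and HIF alpha subunits bind were present at similar levels in both libraries. Ep300 lies at chr15:81585351-81652077 on the plus strand and Crebbp at chr16:4081328-4213997 on the minus strand. On the same strand, 2 small RNA genes overlap Ep300 and 1 annotated gene overlaps Crebbp. Ep300 was 5.72 FPKM in WT against 6.33 FPKM in ESAM-null, a ratio of 1.11 with an interval of 0.983 to 1.25. Crebbp was 10.3 FPKM and 9.46 FPKM, 1.09-fold lower, with an interval of the ratio of 0.843 to 1.004. Together they came to 16.0 FPKM in WT against 15.8 FPKM in ESAM-null. Within each library, Cited2 stood at 13.4 times the level of Ep300 alone in WT and 14.1 times in ESAM-null, and Cited4 stood at 3.88 times the level of Ep300 in ESAM-null.

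**Figure D2:**
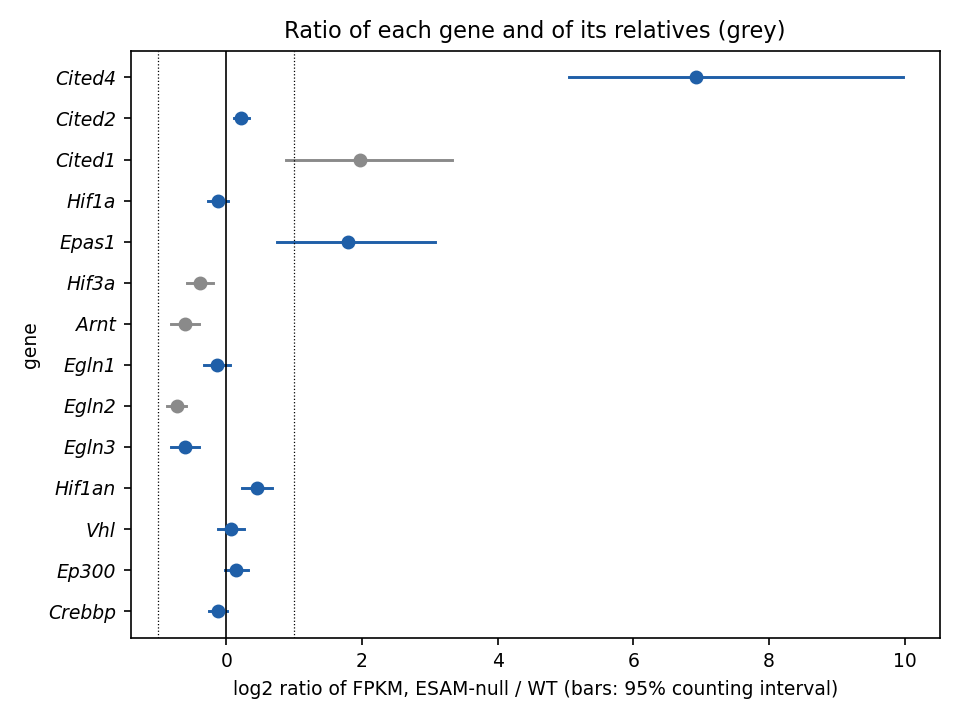
Log2 ratio of FPKM, ESAM-null to WT, with 95% counting intervals, for the 10 described genes (blue) and 4 relatives (grey); the dotted lines are 2-fold. Cited4 (6.93), Cited1 (1.98) and Epas1 (1.80) lie above 1, and the other points lie between -0.73 and 0.45.

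Of the 10 genes, 9 reached 1 FPKM in at least 1 library. Among these 9, 1 was at least 2-fold higher in ESAM-null (Cited4), 0 were at least 2-fold lower and 8 were within 2-fold, with ratios from 0.657 for Egln3 to 1.37 for Hif1an. Over all 12066 genes that reached 1 FPKM, 7.42% were at least 2-fold higher and 12.8% at least 2-fold lower. The median log2 ratio was 0.07 over the 9 genes and 0.00 over all 12066. Counting intervals held 1 for 5 of the 10 genes: Hif1a, Egln1, Vhl, Ep300 and Crebbp.

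**Figure D3:**
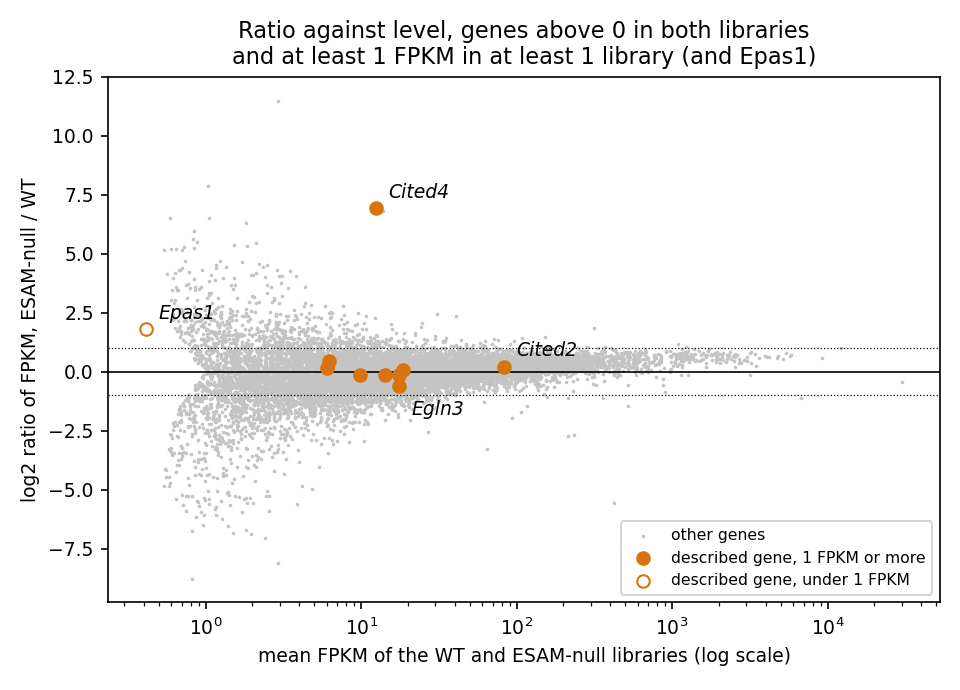
Log2 ratio of FPKM, ESAM-null to WT, against the mean FPKM of both libraries (log axis) for genes above 0 in both, with the described genes in orange (Epas1, under 1 FPKM, as an open circle) and 2-fold as dotted lines. Cited4 lies far above most genes of its level, Egln3 lies at the lower side of the cloud, and the cloud itself tilts upward, with a median ratio of 0.868 at 3 to 10 FPKM and 1.28 at 100 FPKM or more.

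Other parts of the HIF machinery were taken from a list of 17 genes, of which 16 reached 1 FPKM. Past 2-fold, 1 gene (6.25%) was higher in ESAM-null, Cited1, and 0 were lower, beside 7.42% higher and 12.8% lower over all genes. The median log2 ratio was -0.06, and 8 genes lay above and 8 below a ratio of 1. The most abundant were Tceb2, an elongin subunit of the VHL ligase, at 869.4 FPKM in WT against 1338 FPKM in ESAM-null, Gnb2l1, the oxygen-independent HIF regulator RACK1, at 800.8 FPKM and 1345 FPKM, and Hsp90ab1, the chaperone that stabilises the alpha subunit, at 844.2 FPKM and 1113 FPKM. The genes of the list at 100 FPKM or more had a median ratio of 1.34, beside 1.28 over all genes of that level.

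Genes downstream of HIF were taken from a list of 55 textbook targets, of which 47 reached 1 FPKM. At least 2-fold lower were 5 (10.6%), and at least 2-fold higher were 4 (8.51%), beside the 12.8% and 7.42% of all genes. The median log2 ratio was 0.13, beside -0.00024 over all genes, with 30 ratios above 1 and 17 below. After rescaling to equal totals, 20 of the 47 lay above 1, and the share of all genes above 1 was not counted at this setting. Single targets, chosen after their values were seen, went in different directions. Vegfa, the vessel growth factor, was 17.0 FPKM in WT against 17.9 FPKM in ESAM-null, and Slc2a1, the glucose transporter, was 52.4 FPKM and 57.4 FPKM. Car9, a carbonic anhydrase, was 7.63 FPKM and 4.17 FPKM, 1.83-fold lower, and Pgk1, a glycolytic kinase, was 189.7 FPKM and 295.9 FPKM, 1.56-fold higher. Epo was listed at 0 in both libraries.

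The targets were also read by level. The 12 at a mean of 100 FPKM or more, most of them glycolytic enzymes, all had ratios above 1, from 1.04 to 2.04 with a median of 1.47, and 5 of 12 were at least 1.5-fold higher. Of all genes of that level, 83.9% had a ratio above 1 and 23.7% were at least 1.5-fold higher. After rescaling, 9 of the 12 stayed above 1, again without a count over all genes. The most abundant were Mif, a cytokine, at 1898 FPKM in WT against 3002 FPKM in ESAM-null, Gapdh, a glycolytic enzyme, at 1085 FPKM and 1634 FPKM, and Ldha, the lactate dehydrogenase subunit, at 1019 FPKM and 1487 FPKM. Several of these enzymes have processed copies elsewhere in the genome, and the handling of reads shared with them was not stated. The 30 targets under 30 FPKM had a median log2 ratio of -0.02, beside -0.15 over all 8382 genes under 30 FPKM.

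Of the 9 targets past 2-fold, 4 had at least 10 FPKM in the higher library. Slc16a3, the lactate exporter, was 4.67 FPKM in WT against 13.1 FPKM in ESAM-null, 2.80-fold higher with an interval of 2.36 to 3.33. Hmox1, the heme-degrading oxygenase, was 5.81 FPKM and 13.2 FPKM, 2.27-fold higher with an interval of 1.72 to 2.99. Eno1, a glycolytic enolase, was 73.9 FPKM and 150.7 FPKM, 2.04-fold higher with an interval of 1.91 to 2.18. In the other direction, Pdgfb, a growth factor subunit, was 14.46 FPKM in WT against 4.45 FPKM in ESAM-null, 3.25-fold lower with an interval of 2.64 to 4.01. The other 5, named after their values were seen, were under 3 FPKM in both libraries: Adm, Ndrg1, Pfkfb3 and Stc2 were lower in ESAM-null and P4ha2 was higher.

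**Figure D4:**
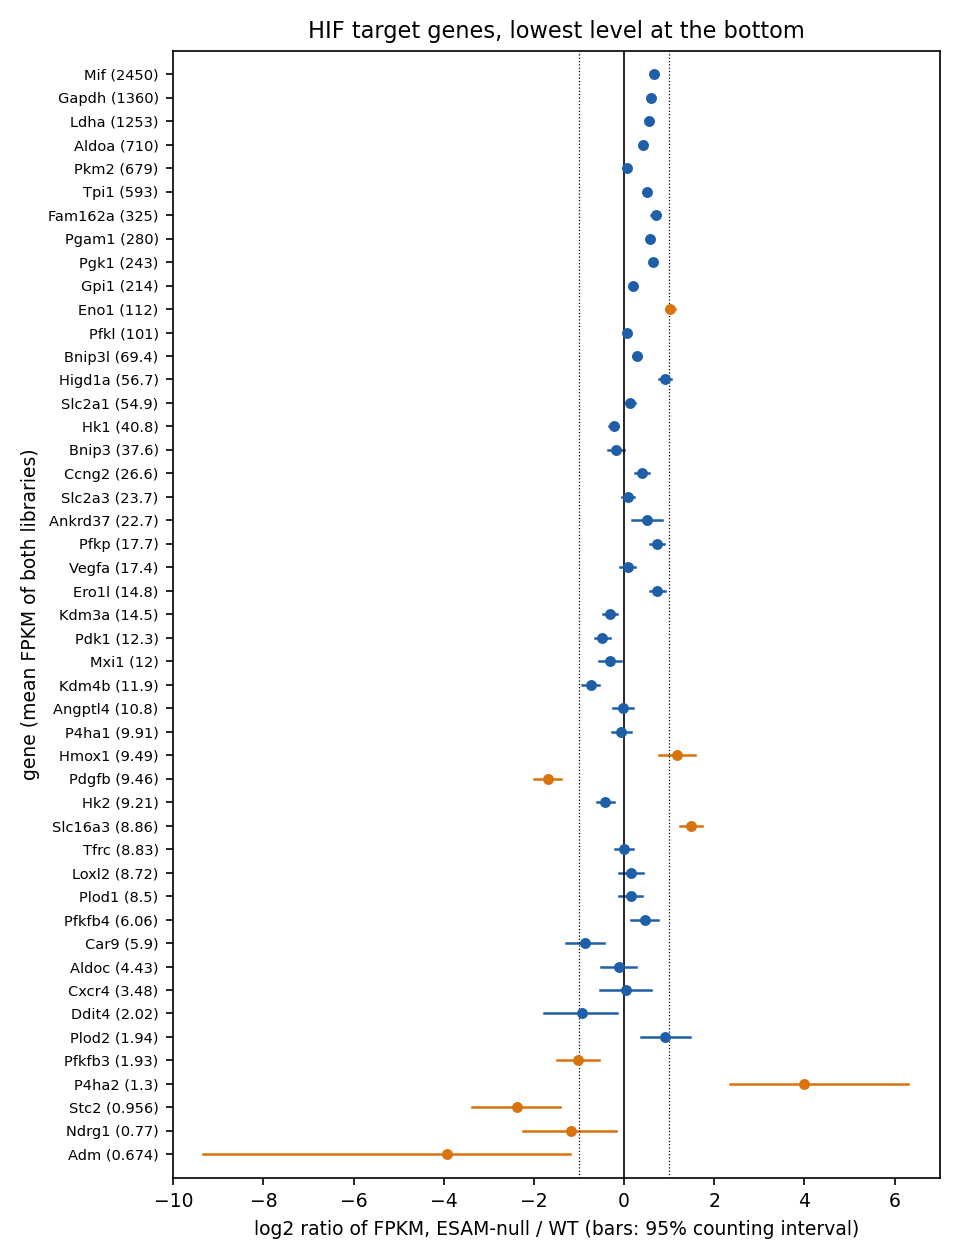
Log2 ratio of FPKM, ESAM-null to WT, with 95% counting intervals, for the 47 HIF targets that reached 1 FPKM, ordered by mean FPKM (given beside each name) with the lowest at the bottom. Orange marks the 9 past 2-fold (dotted lines), and the 12 genes at 100 FPKM or more all lie right of 0.

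Acetyltransferases and coactivators akin to Ep300 and Crebbp formed a list of 18, and all 18 reached 1 FPKM. Past 2-fold, 4 (22.2%) were lower in ESAM-null and 0 were higher, beside 12.8% and 7.42% over all genes. The median log2 ratio was -0.40 with 14 of 18 ratios below 1. The 15 of the 18 under 30 FPKM had a median log2 ratio of -0.66, beside -0.15 over all genes under 30 FPKM. Kat2b, a histone acetyltransferase, was 2.29 FPKM in WT against 0.851 FPKM in ESAM-null, and the other 3, named after their values were seen, were the nuclear receptor coactivators Ncoa1 and Ncoa3 and the CREB coactivator Crtc3. In the range of 3 to 10 FPKM, which holds Ncoa3 and Crtc3 as well as Ep300, 16.5% of all genes were at least 2-fold lower, and in the range of 1 to 3 FPKM, which holds Kat2b and Ncoa1, 538 of 1796 were. Among the most abundant of the list were Kat2a, the closest relative of Kat2b, at 67.8 FPKM and 57.9 FPKM, and Myst1, the acetyltransferase also called Kat8, at 28.8 FPKM and 32.7 FPKM. Ep300 and Crebbp, with ratios of 1.11 and 0.919, lay nearer to 1 than the median of this list, a difference that was not tested.

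Genes tied to Cited2 in hematopoietic cells formed a list of 7, of which 4 reached 1 FPKM and 0 were past 2-fold in either direction. Over all genes 12.8% were lower and 7.42% higher, so a count of 0 among 4 genes says little. The median log2 ratio was -0.20. Bmi1, the Polycomb gene that sustains HSC self-renewal, was 22.1 FPKM in WT against 20.0 FPKM in ESAM-null. Gata2, a transcription factor of HSCs, was 62.4 FPKM and 70.0 FPKM, and Mcl1, a survival factor, was 121.8 FPKM and 102.0 FPKM. Cdkn2a, the cell cycle inhibitor locus that Bmi1 represses, was listed at 0 in both.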

How the data were processed

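RNA-seq libraries of E14.5 FL LSK CD48– cells, 1 WT and 1 ESAM-null, were used. The authors deposited FPKM per gene symbol for each library. Cuffnorm 2.2.1, TopHat2 2.0.13, SAMtools 0.1.19 and Bowtie2 2.2.3 stand in the submitters' processing notes, with mm10 as the build. The sources used here do not give the annotation, the library normalization setting or the handling of reads with several matches.

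For each gene, ESAM-null FPKM was divided by WT FPKM. A count past 2-fold took in genes that reached 1 FPKM in either library. Reads per gene were estimated from FPKM, the GENCODE M21 length of the transcript paired with RefSeq (GRCm38, the same build as mm10), an assumed fragment length of 200 bp (SD 80 bp) and the value of 1 read, found in low genes with a single transcript length. A whole read was met to within 0.05 by 72.3% of these low genes in WT and by 65.8% in ESAM-null. The totals were chosen to make this share large, so it is not a separate check. The steps were tested on simulated reads with the same assumed fragment length and no PCR copies, which cannot show an error from either.

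Members and gene lists were chosen with earlier results of these data known. Named were all members, list genes past 2-fold that reached 10 FPKM in the higher library, the 3 most abundant of each list, relatives of members and, for Cited4 and Egln3, the 3 genes nearest in log2(FPKM + 0.1) over both libraries. Some genes are not reported here. Alternatives were other filters, pseudocounts, fold thresholds and scalings. Calculations ran in Python 3.11.15 with scipy 1.17.1, pandas 2.3.3 and numpy 2.4.6, and plots in matplotlib 3.10.9.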

Additional observations from a re-analysis of the deposited data

How the results depend on the processing

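No paired analysis was possible because each genotype has 1 library, which also means that no library could be left out. Rescaling both libraries to equal totals moves every log2 ratio by -0.28, and with it the log2 ratio was -0.057 for Cited2, -0.21 for Vhl and -0.13 for Ep300, 3 genes that changed sign, as well as -0.40 for Hif1a, -0.42 for Egln1, -0.88 for Egln3, 0.17 for Hif1an and -0.40 for Crebbp. With log2(FPKM + 1) it was 4.41 for Cited4 and 0.47 for Epas1, because a pseudocount shrinks low values. These were 10 of 50 recomputed gene ratios outside their counting intervals, and 0 of 50 reversed a ratio past 2-fold. For the described genes, 1 was lower at a 1.5-fold threshold, 2 were higher with no filter (Epas1 was added) and 0 with 1 FPKM required in both libraries, which leaves out Cited4. For the HIF machinery, 3 were lower and 4 higher at 1.5-fold, 1 was lower after rescaling, and 0 were higher with 1 FPKM in both or 5 FPKM in 1 library. For the HIF targets, 9 were lower with no filter, 2 with 1 FPKM in both, 1 with 5 FPKM in 1 library, 2 with log2(FPKM + 1), 8 at 1.5-fold, 3 at 3-fold and 8 after rescaling, and 12 were higher at 1.5-fold, 1 at 3-fold and 2 after rescaling. For the coactivators, 2 were lower with 1 FPKM in both, 2 with 5 FPKM in 1 library, 1 with log2(FPKM + 1), 8 at 1.5-fold and 1 at 3-fold. For the genes tied to Cited2, 2 were lower with no filter. The other 76 of 100 recounts stayed within 1.5 times. Shares over all genes are not given at these settings, so the recounts show only how far the counts move. With 2 WT reads behind it, the Cited4 ratio has a counting interval of 33.1 to 1004.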

Other observations

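The genes nearest to Cited4 in their pair of levels over the 2 libraries were Fabp4, Snora52 and Olfr632. Their distances were 0.249, 1.60 and 1.94 log2 units, so only Fabp4 lay close. Fabp4, a lipid carrier of fat cells, macrophages and capillary endothelium, was 0.245 FPKM in WT against 27.5 FPKM in ESAM-null, about 2 and 195 reads. Snora52, a small nucleolar RNA, was listed at 0 and at 22.7 FPKM, about 10 reads. For this short RNA, 1 read in WT would be 2.49 FPKM. Olfr632, an olfactory receptor gene, was 0.426 FPKM and 7.18 FPKM, about 3 and 55 reads. The adipocyte markers Adipoq, Plin1 and Pparg were listed at 0 in both libraries, and Lpl was 0.110 FPKM in WT against 1.22 FPKM in ESAM-null. Macrophage markers summed to 12.7 FPKM in WT against 7.01 FPKM in ESAM-null, with 4 of 6 listed at 0 in ESAM-null. C1qb was also lower, at 3.85 FPKM and 1.94 FPKM, and C1qc was higher, at 3.38 FPKM and 5.07 FPKM. Hepatocyte markers summed to 9.55 FPKM and 14.2 FPKM, also with 4 of 6 listed at 0 in ESAM-null. The rest were higher there: Apoa1 at 1.09 FPKM in WT against 7.52 FPKM, about 9 and 64 reads, and Afp at 4.35 FPKM against 6.69 FPKM. Fewer genes were above 0 in the ESAM-null library as a whole. Whether a listed 0 there stands for a missing cell type was not tested. The genes nearest to Egln3 were Fcho2, Trmt61a and Pias1, at 21.05 to 21.11 FPKM in WT and 13.6 to 13.7 FPKM in ESAM-null.

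Mature erythroid markers summed to 1246 FPKM in WT against 790.3 FPKM in ESAM-null, most of it Hbb-b2 at 855.0 FPKM and 729.8 FPKM. Of the 5 that reached 1 FPKM, 3 were past 2-fold, all lower in ESAM-null: Alas2 at 8.08 FPKM and 0.282 FPKM, Slc4a1 at 6.08 FPKM and 0.471 FPKM, and Hba-a2 at 373.2 FPKM and 57.1 FPKM. The median ratio of the list was 0.153. Over all genes 12.8% were at least 2-fold lower. Megakaryocyte markers summed to 84.2 FPKM and 94.7 FPKM. Their part in the values of the CITED and HIF genes was not tested.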
